A study of Mus musculus with 6 samples.

Results

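The metallothioneins Mt1, Mt2, Mt3 and Mt4, the zinc exporter Slc30a1 and the zinc-sensing factor Mtf1 were followed in mouse lung with and without exposure to cigarette smoke. Members were all probe sets whose single gene symbol was one of these names, which gave 6 probe sets, 1 for each gene, of 12488 on the array. Lung RNA was hybridized to 6 Affymetrix arrays, 1 smoked and 1 control array for each of the kinds of mice labelled ICR, DBA and C57, of which ICR is an outbred stock. The smoked mice of each strain had the smoke of 3 cigarettes daily on 5 days a week for 4 weeks, and the control mice of each strain are labelled as having normal lung. The sources used here do not state age, sex, full strain names or whether an array held 1 mouse or a pool. No mouse carried a transgene or deletion that the labels name.

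Metallothioneins are small cysteine-rich proteins that bind zinc and copper and also toxic metals such as cadmium, a metal present in tobacco smoke. When free zinc rises, MTF1 enters the nucleus and binds metal response elements, short motifs in the promoters of Mt1, Mt2 and Slc30a1. Mt1 and Mt2 are made in most tissues and are also induced by glucocorticoids and by oxidative stress. Mt3 is best known from brain and Mt4 from stratified squamous epithelia such as tongue and oesophagus. Slc30a1, also called ZnT1, moves zinc out of the cell across the plasma membrane.

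The 4 metallothionein genes lie next to each other on chromosome 8 in the order Mt4, Mt3, Mt2, Mt1, with the noncoding RNA gene Gm39227 between Mt3 and Mt2. Slc30a1 lies on chromosome 1 and Mtf1 on chromosome 4. Promoter windows of 300 bases, 250 of them before the annotated start, were found in RefSeq (build GRCm38.p6, the C57BL/6J reference) for all 6 genes. Those of Mt1 and Mt2, the 2 genes called against C57 in both other strains, and of Mt4, called in ICR, are shown 5′ to 3′ on the plus strand, at chr8:94178839-94179138 for Mt1, chr8:94172368-94172667 for Mt2 and chr8:94136954-94137253 for Mt4. Capitals mark the core of the metal response element, searched as TGCACNC or TGCGCNC on both strands.
Mt1: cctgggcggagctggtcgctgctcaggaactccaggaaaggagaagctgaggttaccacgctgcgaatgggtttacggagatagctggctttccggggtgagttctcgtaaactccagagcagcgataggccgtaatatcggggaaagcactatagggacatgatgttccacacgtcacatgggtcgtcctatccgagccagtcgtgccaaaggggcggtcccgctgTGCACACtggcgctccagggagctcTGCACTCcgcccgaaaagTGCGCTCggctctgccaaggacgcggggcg
Mt2: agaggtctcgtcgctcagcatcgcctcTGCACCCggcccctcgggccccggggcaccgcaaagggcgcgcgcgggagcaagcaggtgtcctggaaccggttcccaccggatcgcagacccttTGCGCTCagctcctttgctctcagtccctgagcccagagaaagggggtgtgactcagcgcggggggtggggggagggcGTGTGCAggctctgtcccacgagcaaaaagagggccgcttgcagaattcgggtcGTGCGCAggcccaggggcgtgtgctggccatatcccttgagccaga
Mt4: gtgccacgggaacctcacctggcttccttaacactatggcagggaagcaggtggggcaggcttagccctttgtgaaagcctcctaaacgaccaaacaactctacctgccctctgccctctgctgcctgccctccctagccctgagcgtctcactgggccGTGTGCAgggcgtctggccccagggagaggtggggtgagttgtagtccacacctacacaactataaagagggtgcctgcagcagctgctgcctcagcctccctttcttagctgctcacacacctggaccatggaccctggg

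The core matched 4 times in the Mt2 window, 3 times in that of Mt1, 2 times in that of Slc30a1, once in those of Mt3 and Mt4 and not in that of Mtf1. Of 32841 RefSeq windows of this length, 25.7% held at least 1 match, 7.12% at least 2, 1.97% at least 3 and 0.518% at least 4. Matches in Mt1 lay 23 bases before the annotated start and 3 and 21 bases after it, those in Mt2 lay 223, 128 and 50 bases before it and 5 bases after it, and the match in Mt4 lay 91 bases before it, counted to the match's first base on the plus strand. The core of the antioxidant response element, searched as TGACNNNGC on both strands, matched once each in Mt2 and Slc30a1, as in 12.4% of windows, and a glucocorticoid response element, searched as GNACA and TGTNC with 3 bases between them, matched once in Mt1, as in 0.475% of windows. No searched motif overlapped another. A match describes letters only, and windows follow the annotated starts.

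**Figure D1:**
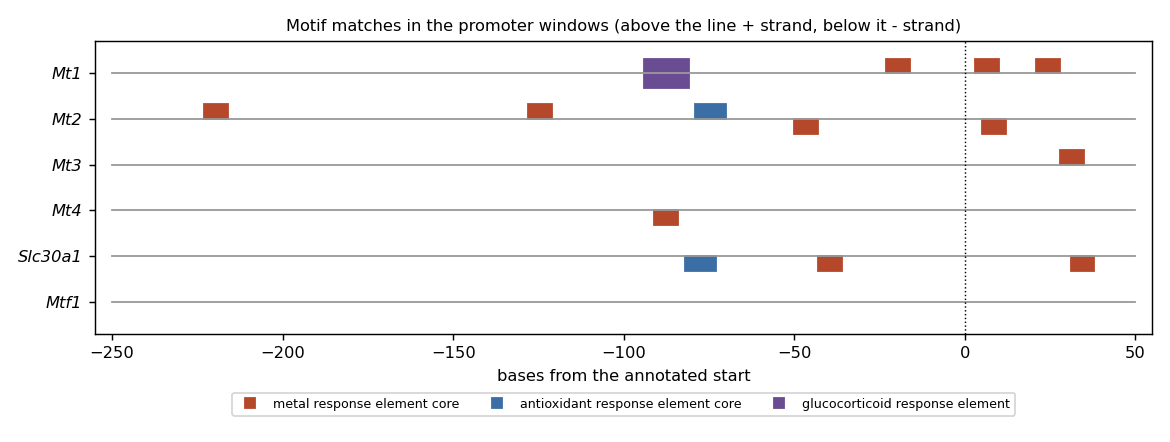
Matches of 3 motifs in the promoter windows of the 6 genes, with bases from the annotated start on the horizontal axis, plus-strand matches above each line and minus-strand matches below it. Mt2 has 4 metal response element cores, Mt1 has 3, and Mtf1 has none.

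Values are given as deposited intensity, a linear scale with unknown summary method, and differences as log2 of the intensity plus 8.05 after quantile normalization between arrays, which understates differences of low signals. The ICR smoked array stood apart, with a median intensity of 26.0 against 52.5 to 85.0 on the other 5 arrays. Its 3' to 5' signal ratio of the beta-actin control was 4.75 against 1.46 to 2.75. Deposited values of the ICR smoked array are best read beside the normalized ones. The ratio was also higher in C57, at 2.51 and 2.75 on the smoked and control arrays, than in DBA, at 1.66 and 1.46, or on the ICR control array, at 1.63. The ratio thus differed along with the comparisons against C57, and its part in them was not tested. Defining lung genes were high on all 6 arrays: Sftpc, surfactant protein C of alveolar type II cells, read 7184 to 10579, and Scgb1a1, the secretoglobin of club cells, 7572 to 10324. Of the 6 members, 5 passed the filter on low signal and were among the 7453 probe sets tested. Slc30a1, with a mean log2 value of 5.07 against the minimum of 5.34, did not pass, and Mt4, at 5.45, passed by a small margin through its signal in C57 and in the DBA control. With 6 arrays the precision is low.

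Mt1 and Mt2, the metallothioneins made in most tissues, were highest in C57 lung whatever the exposure. Mt1 read 98.3 on the smoked and 182 on the control array of ICR, 485 and 434 in DBA, and 832 and 1336 in C57. Mt2 read 280 and 486 in ICR, 647 and 607 in DBA, and 1254 and 1512 in C57, smoked array first. For both genes the 2 C57 arrays lay above all 4 others, also after normalization. The same was true of Mt4 and not of Mt3 or Mtf1, and it held for 14.3% of all probe sets tested.

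**Figure D2:**
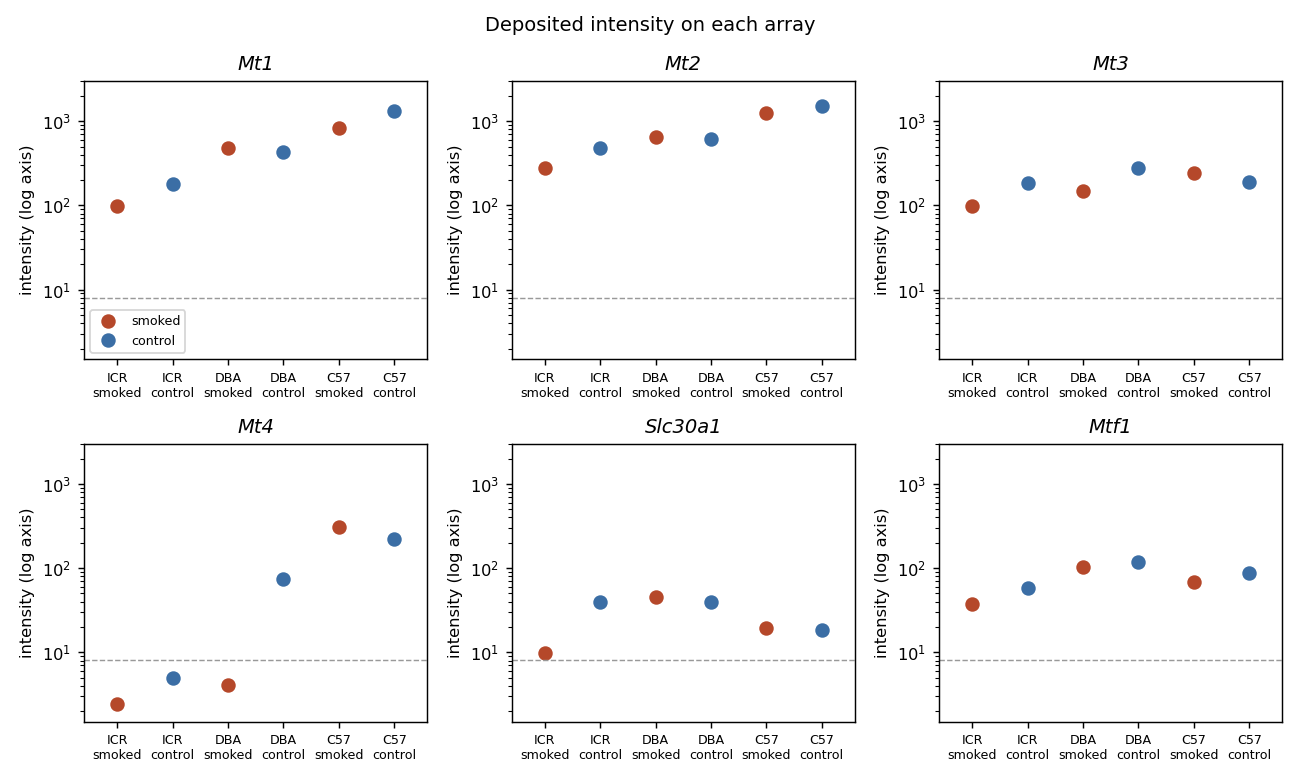
Deposited intensity (log axis) of the 6 genes on each of the 6 arrays, smoked in red and control in blue, with the added constant of 8.05 as a dashed line. Mt1, Mt2 and Mt4 are highest on the C57 arrays, while Mt4 lies below the dashed line on both ICR arrays and on the DBA smoked array.

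Strains were compared in 1 limma fit over all 6 arrays with exposure as a term, so that 2 arrays stood for each strain, and a probe set was called at a Benjamini-Hochberg adjusted p below 0.05 over all probe sets tested. Mt1 was lower in ICR than in C57 by a log2 difference of -2.09 (SE 0.25, limma adjusted p = 0.00392), with mean log2 values of 7.73 in ICR and 9.82 in C57, a 4.25-fold higher signal in C57. Mt2 was lower in ICR than in C57 by -1.06 (SE 0.21, limma adjusted p = 0.0424), with means of 9.12 and 10.2. Mt4 was lower in ICR than in C57 by -4.14 (SE 0.64, limma adjusted p = 0.0151). Mt1 and Mt2 lay above the filter's minimum on every array, whereas Mt4 passed it only through the arrays where it is high, so its call is not counted with theirs. Of all probe sets 1.37% were called lower in ICR and 2.29% called at all. Without the filter Mt1 alone of the 3 was called.

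In DBA against C57, Mt1 was lower by -1.29 (SE 0.25, limma adjusted p = 0.0354), with mean log2 values of 8.52 in DBA and 9.82 in C57. Mt2 was lower by -1.19 (SE 0.21, limma adjusted p = 0.0256), with means of 8.99 in DBA and 10.2 in C57. Mt4 missed the threshold at -3.08 (SE 0.64, limma adjusted p = 0.0537). The 2 members called compare with 0.859% of all probe sets called lower in DBA and 1.73% called at all. The C57 arrays serve in both comparisons, so these are not independent of each other.

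No member was called between ICR and DBA, where 1.17% of probe sets were called, 0.657% lower, and 15.6% had an unadjusted p below 0.05. Mt1 had a log2 difference of -0.79 (SE 0.25, limma adjusted p = 0.176, unadjusted p = 0.0108), ICR minus DBA, while Mt2 had 0.13 (SE 0.21, limma adjusted p = 0.803). Mt1 minus Mt2 on the log2 scale was -1.41 and -1.38 on the smoked and control arrays of ICR, -0.42 and -0.51 in DBA and -0.56 and -0.16 in C57. The 2 genes thus changed unequally between strains, with Mt1 further down in ICR relative to Mt2 on both ICR arrays, a difference that was not tested. The order of Mt1 over strains was ICR, DBA, C57 from low to high, with ICR and DBA not told apart by the test, and for Mt2 the difference between ICR and DBA was smaller than its SE.

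**Figure D3:**
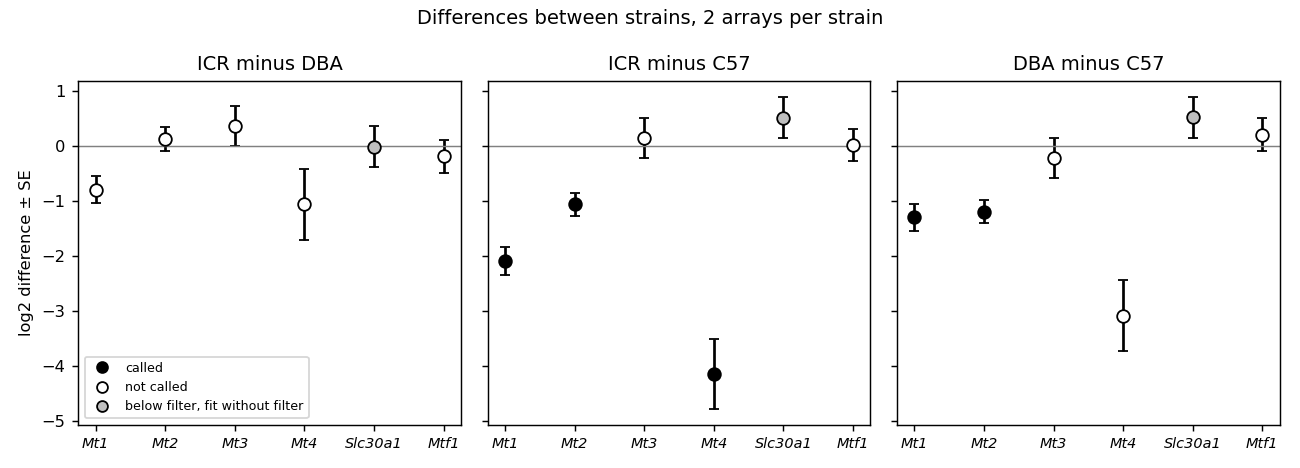
Log2 differences between strains with SE from limma for the 6 genes, in panels for ICR minus DBA, ICR minus C57 and DBA minus C57, with called differences filled, differences not called open and Slc30a1, fitted without the filter, grey. Mt1 and Mt2 are called against C57 in both other strains and Mt4 in ICR alone; no gene is called in ICR against DBA.

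These calls depended on the processing and on single arrays. In DBA against C57, neither Mt1 nor Mt2 was called without scaling between arrays (limma adjusted p = 0.957 for Mt1 and 0.941 for Mt2), without the filter (0.0835 and 0.0646) or with no mean trend in the variance (0.0678 for each). In ICR against C57, Mt2 was not called without the filter (limma adjusted p = 0.0915) or with no mean trend (limma adjusted p = 0.0939), while Mt1 was called under all 3 settings. In DBA against C57, Mt1 was not called without the C57 control array (-0.98, limma adjusted p = 0.561) or the DBA control array (-1.23, limma adjusted p = 0.0714), nor without the ICR control array (limma adjusted p = 0.0525) or the ICR smoked array (limma adjusted p = 0.0523), where the difference itself stayed at -1.29. Mt2 was not called there without the C57 control array (-1.09, limma adjusted p = 0.229) or the DBA smoked array (-1.10, limma adjusted p = 0.0794). In ICR against C57, Mt1 was not called without the ICR control array (-1.84, limma adjusted p = 0.0849), while without the ICR smoked array it still was (-2.34, limma adjusted p = 0.0382). Mt2 was not called there without the C57 control (-0.96, limma adjusted p = 0.328), C57 smoked (-1.16, limma adjusted p = 0.0783), ICR control (-0.87, limma adjusted p = 0.182) or ICR smoked array (-1.25, limma adjusted p = 0.0569). In every alternative run, including each array left out, the difference of Mt1 and of Mt2 from C57 kept its negative sign, between -1.61 and -0.98 for Mt1 and -1.43 and -1.09 for Mt2 in DBA, and between -2.90 and -1.78 for Mt1 and -1.88 and -0.87 for Mt2 in ICR. Without scaling between arrays the median of all probe sets was itself -0.73 in ICR against C57, and relative to it Mt1 lay at -2.17 and Mt2 at -1.14. In DBA against C57 that median was 0.14, with Mt1 at -1.33 and Mt2 at -1.27 relative to it, neither called there.

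Mt4, the metallothionein of stratified epithelia, read 2.44 and 4.94 on the smoked and control arrays of ICR, 4.07 and 74.6 in DBA, and 312 and 219 in C57. It was thus well measured on both C57 arrays and the DBA control array, and below the added constant of 8.05 on the other 3. Its fitted difference in ICR against C57 changes with the constant and spanned -5.10 to -2.80 in the 13 alternatives that could be fitted, in 9 of which it was called. Without the ICR control array it stood at -3.67 (limma adjusted p = 0.230) and without the ICR smoked array at -4.62 (limma adjusted p = 0.0684). In DBA against C57 it was called in 5 of 13 alternatives, among them without the C57 control array (-4.04, limma adjusted p = 0.000113), the DBA control array (-4.52, limma adjusted p = 2.99e-12) and the DBA smoked array (-1.65, limma adjusted p = 0.0253). Without the DBA smoked array it was also called in ICR against DBA, at -2.50 (limma adjusted p = 8.40e-05). Since Mt4 passed the filter through the arrays where it is high, its call is not independent of the filter, and without the filter it was not called in ICR against C57 (limma adjusted p = 0.0771).

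Mt3, known from brain, was not called in any comparison. It read 99.5 and 183 on the smoked and control arrays of ICR, 149 and 281 in DBA and 245 and 187 in C57. After normalization the ranges of all 3 strains overlapped, while in deposited values both ICR arrays lay below both C57 arrays. Its differences were 0.37 (SE 0.37) in ICR minus DBA, 0.15 (SE 0.37) in ICR minus C57 and -0.21 (SE 0.37) in DBA minus C57, at limma adjusted p of 0.665, 0.865 and 0.912, and their signs turned in 2, 4 and 2 of 15 alternatives. Of 10 neural markers measured 4 passed the filter, and none was called between strains. Snap25, a synaptic protein of neurons, read 1.02 to 3.47 on the 6 arrays, below the added constant.

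Mtf1, the factor that binds metal response elements, read 37.8 and 57.9 on the smoked and control arrays of ICR, 103 and 118 in DBA and 67.7 and 87.6 in C57. After normalization its log2 values ran from 6.12 to 6.72 over the 6 arrays. Its differences were -0.18 (SE 0.30) in ICR minus DBA, 0.02 (SE 0.30) in ICR minus C57 and 0.21 (SE 0.30) in DBA minus C57, none called. Slc30a1 read 9.94 and 39.4 in ICR, 44.9 and 39.3 in DBA and 19.4 and 18.2 in C57, smoked array first. Both DBA arrays and the ICR control array lay above both C57 arrays and the ICR smoked array below them. After normalization the ICR smoked array also lay above both C57 arrays, at 4.82 against 4.76 and 4.69 on the log2 scale. Fitted without the filter, its difference was 0.52 (SE 0.37, limma adjusted p = 0.584) in ICR minus C57 and 0.53 (SE 0.37, limma adjusted p = 0.743) in DBA minus C57.

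The next comparison asked whether smoke changed these genes in all strains. No member was called in the limma fit with strain as a block (n = 3 pairs), in which 0.0403% of all probe sets were called, and 0 of 5 had an unadjusted p below 0.05 against 1.64% of all. The shared log2 difference, smoked minus control, was -0.22 (SE 0.20) for Mt1, -0.11 (SE 0.17) for Mt2, -0.23 (SE 0.30) for Mt3, -0.75 (SE 0.52) for Mt4 and -0.13 (SE 0.24) for Mtf1, each at a limma adjusted p near 1. Slc30a1, fitted without the filter, had -0.29 (SE 0.30). These errors leave room for changes of either sign, so the values do not show that smoke had no effect.

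Within strains the directions differed, with 1 array on each side and no test. Mt1 differed by 0.11 in ICR, -0.14 in DBA and -0.64 in C57, and Mt2 by 0.14, -0.23 and -0.24 in the same order, log2 smoked minus control. In C57, 5.69% of probe sets had a larger absolute difference than Mt1. Mtf1 differed by 0.38, -0.46 and -0.30. No tested member had the same direction in all 3 strains, which 17.6% of probe sets had. Without the DBA pair the shared value of 3 members changed sign, to 0.25 for Mt3, 0.21 for Mt4 and 0.04 for Mtf1, and without the C57 pair that of Mt1 was -0.02. In deposited values Mt1 and Mt2 were both slightly higher on the smoked than on the control DBA array, at ratios of 1.12 and 1.06, on an array whose median intensity was 85.0 against 68.9.

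Differences of at least 2-fold were found for 2 of the 6 members in DBA and for none in ICR or C57, where 3.05% of probe sets differed this much in DBA (2.36% lower), 6.48% in ICR and 1.21% in C57. Mt4 was lower on the DBA smoked array, at 4.07 against 74.6, a log2 difference of -2.66, with -0.11 in ICR and 0.53 in C57. Mt3 was lower there too, at 149 against 281, a log2 difference of -1.20, with 0.11 in ICR and 0.39 in C57. Slc30a1 differed by -0.84 in ICR, -0.09 in DBA and 0.07 in C57. Its normalized log2 value was 4.82 on the ICR smoked array and 5.66 on the ICR control array, the latter its highest on the 6 arrays.

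An extra smoke term for a single strain tested whether its smoked minus control difference was unlike that in the rest. For DBA, Mt4 was called at -2.87 (SE 0.69, limma adjusted p = 0.00982), DBA minus the mean of the other strains, where 0.711% of probe sets were called and 0.577% called lower. Mt3 stood at -1.46 (SE 0.53, limma adjusted p = 0.432, unadjusted p = 0.00699, where 3.94% of probe sets had an unadjusted p below 0.05). The extra term left 1 residual degree of freedom, and 1 pair cannot part a response of the strain from an unusual sample. Mt4 passed the filter through the arrays where it is high. It lay below the added constant on both ICR arrays, so a change in ICR could hardly show. No member was called for C57, where 0.134% of probe sets were, or for ICR, where limma called 0 probe sets and 14.3% had an unadjusted p below 0.05; in C57, Mt4 had 1.92 (SE 0.81, limma adjusted p near 1, unadjusted p = 0.0230, where 3.01% of probe sets had one below 0.05). Without scaling between arrays Mt4 in DBA had -2.86 (SE 1.02, limma adjusted p = 0.875) and without the filter a limma adjusted p of 0.532, so neither called it.

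**Figure D4:**
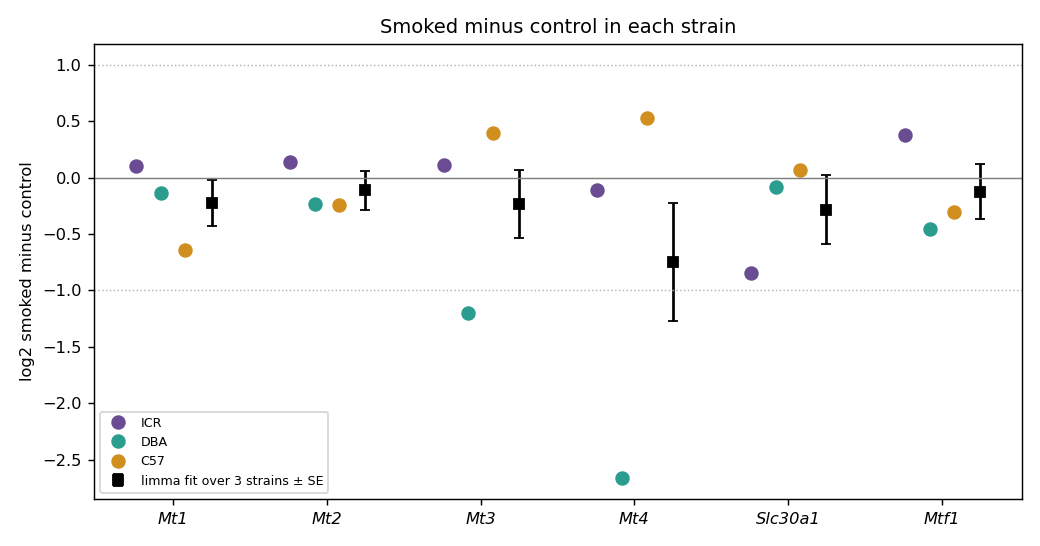
Log2 smoked minus control for the 6 genes in each strain (coloured points, 1 array on each side) and the limma estimate over the 3 strains with SE (black squares), with dotted lines at a 2-fold difference. The values of Mt1 and Mt2 lie between -0.64 and 0.14, and only Mt3 and Mt4 in DBA pass the dotted lines.

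Most tested skeletal muscle markers, and some of stratified epithelium, moved with the strain differences of Mt1, Mt2 and Mt4. Of 14 skeletal muscle genes measured, 10 were tested. Of these, 7 were called lower in ICR than in C57, against 1.37% of all probe sets tested. In DBA, 6 were called lower than in C57, against 0.859%. Acta1, the actin of skeletal muscle, had a log2 difference of -6.10 in ICR and -3.84 in DBA, each minus C57. It read 9.75 and 34.7 on the smoked and control arrays of ICR. Its normalized value on the ICR smoked array lay below the filter's minimum, so its size in ICR is uncertain. Myh1, a fast myosin, read 5.01 and 2.26 on the smoked and control arrays of ICR, 4.61 and 35.6 in DBA and 248 and 457 in C57, so that it passed the filter through its C57 values and the size of its difference is not given. The counts of muscle genes called include such genes and were partly fixed by the filter. Their summed intensity was 286 and 487 on the smoked and control arrays of ICR, 1027 and 1459 in DBA and 5084 and 7151 in C57, the same order of strains as for Mt1. Of 18 stratified epithelium markers measured, 8 were tested. Of these, 2 were called lower and 1 higher in ICR than in C57, and 1 was called lower in DBA. The rest were not called against C57. The count in ICR includes Krt13 and was partly fixed by the filter. Krt13, a keratin of oesophagus and tongue, read 7.18 and 10.8 in ICR, 26.9 and 72.5 in DBA and 413 and 160 in C57. After normalization it lay below the filter's minimum on both ICR arrays and the DBA smoked array. It thus passed the filter through the arrays where it is high, and the size of its difference is not given. Sfn, an epithelial 14-3-3 protein, was lower than in C57 in both ICR (-1.87, SE 0.28, limma adjusted p = 0.0131) and DBA (-1.60, SE 0.28, limma adjusted p = 0.0229). Sprr1b, a cornified envelope protein, was higher in ICR than in C57 (limma adjusted p = 0.0238), with 3041 and 3993 in ICR and 3182 and 2499 in C57.

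Over all 18 stratified epithelium markers the summed intensity was 3346 and 4418 in ICR, 4582 and 4137 in DBA and 5415 and 3673 in C57. Most of each sum was Sprr1b alone, with 3041 and 3993 in ICR, 3733 and 3136 in DBA and 3182 and 2499 in C57. The sums therefore say little about the other markers of the list. The basal keratins Krt5 and Krt14 read 14.5 or less on every array. Krt4, a keratin of oesophagus, read 114 on the DBA smoked array against 263 on the DBA control array, and its DBA smoke term was called lower too (-2.53, SE 0.53, limma adjusted p = 0.00109). Krtdap, a product of differentiating keratinocytes, read 19.3 against 76.6 on the same arrays and was not called (-2.23, SE 0.66, limma adjusted p = 0.0934). In whole lung, fewer cells of a type and less RNA per cell cannot be told apart. The part of muscle or stratified epithelium in the values of Mt1, Mt2 and Mt4 was not tested.

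Other tissues were marked on the DBA arrays. Liver genes summed to 5791 on the DBA smoked array and 117 to 906 on the other arrays, and neutrophil genes to 18437 on the DBA control array and 1195 to 3186 on the others. Of 4 liver markers tested 2, Serpina1b and Serpina1e, were higher in DBA than in C57, where 1.73% of all probe sets were called. Alb and Mup3 were not called there (limma adjusted p = 0.702 and 0.795). Of 8 neutrophil markers tested none was called between strains. Alb, serum albumin, read 1455 on the DBA smoked array, against 20.6 on the DBA control array, and Ngp, a granule protein of neutrophils, read 6.42 against 2551 on the same arrays. Only 4 of 11 liver markers passed the filter, and genes such as Ngp passed it through the 1 array where they are high, so counts of markers called for the DBA smoke term are not given. Their part in the value of Mt4 in DBA was not tested. Mt1 and Mt2, which liver also makes, read 1.12 and 1.06 times as high on the DBA smoked as on the DBA control array in deposited values, but were lower there after normalization, by log2 differences of -0.14 and -0.23.

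Likeness of profile was measured as Pearson's r of normalized log2 values over the 6 arrays, among 2134 tested probe sets with a range of at least 1 log2 unit, and is a description in which arrays of a strain are alike. The genes most like Mt1 were Tcap (0.996), Pde4dip (0.993), Pygm (0.992), Ldb3 (0.991) and Atp2a1 (0.990). Tcap and Ldb3 are sarcomere proteins, Pygm is muscle glycogen phosphorylase and Atp2a1 the calcium pump of fast muscle. Mt2 had an r of 0.881 with Mt1 and ranked 300 among 7452 probe sets. The genes most like Mt4 were Ly6d (0.983), a surface protein of keratinocytes, Krt13 (0.974), Nnmt (0.972), a methyltransferase of nicotinamide, and the skeletal muscle genes Acta1 (0.968) and Myh1 (0.952). Mt4 and Myh1 lay below the added constant on both ICR arrays and the DBA smoked array. Krt13 lay below the filter's minimum on the same arrays. The r values of Krt13 and Myh1 with Mt4 thus partly record low signal on the same arrays.

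**Figure D5:**
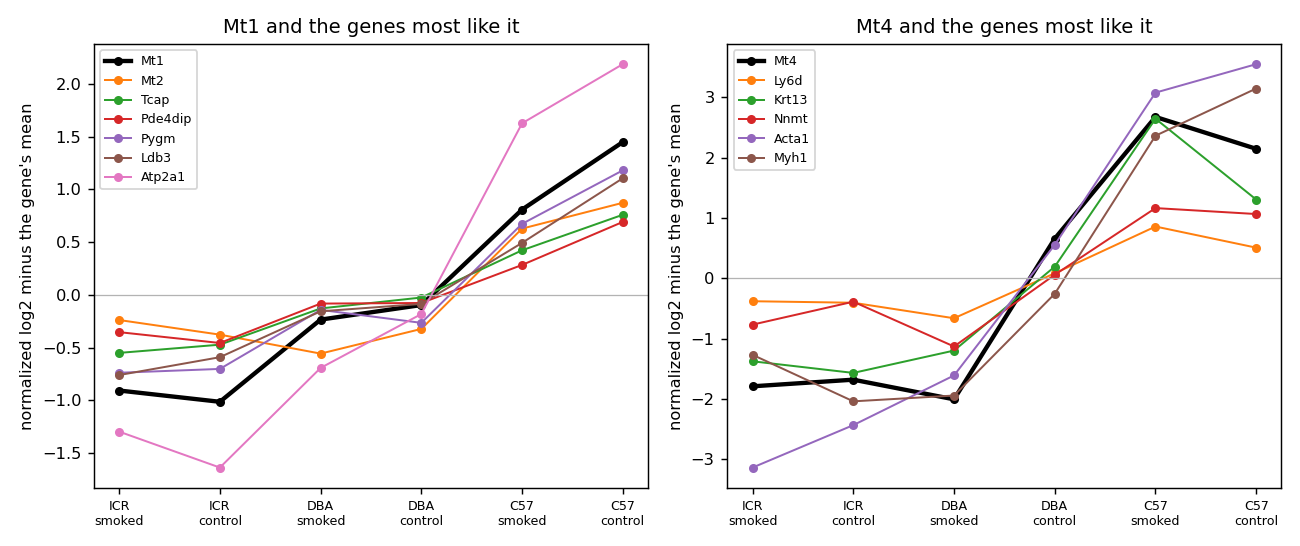
Normalized log2 values minus each gene's mean over the 6 arrays, for Mt1 with Mt2 and the 5 genes most like Mt1 (left) and for Mt4 with the 5 genes most like it (right). All lie above their mean on both C57 arrays, and Mt4 and Krt13 lie below theirs on the DBA smoked and ICR arrays.

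Among other genes of metal handling, Slc39a4 and Sod1 were called. Of all probe sets 2.29% were called in ICR minus C57, 1.73% in DBA minus C57 and 1.17% in ICR minus DBA. Of 4 further zinc exporters tested, Slc30a3, Slc30a4, Slc30a5 and Slc30a9, none was called between strains or with smoke, and their median difference was 0.38 in ICR minus C57, against -0.02 over all probe sets tested, and -0.03 in DBA minus C57, against -0.03. Of 7 zinc importers tested 1 was called. Slc39a4, the importer ZIP4 that takes up zinc at the plasma membrane, read 117 and 248 in ICR, 1048 and 761 in DBA and 1019 and 931 in C57, smoked array first. It was lower in ICR than in C57 (log2 -1.62, SE 0.21, limma adjusted p = 0.00639) and than in DBA (-1.46, SE 0.21, limma adjusted p = 0.0144). Slc39a8, the importer ZIP8 that also carries cadmium, had 0.36 in ICR minus C57 and 0.06 in DBA minus C57, neither called.

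Of 10 copper handling genes tested 1 was called, Sod1, the copper and zinc superoxide dismutase, lower in ICR than in C57 (log2 -2.79, SE 0.53, limma adjusted p = 0.0348), with 373 and 123 in ICR and 2382 and 2932 in C57. None of 8 iron handling genes was called in any comparison, among them Ltf, Ireb2 and Tfrc, the 3 with the widest range over the arrays, which had -0.38, -0.24 and -0.34 with smoke over the 3 strains. Hmox1, the haem oxygenase that cadmium and oxidative stress induce, had -0.09 (SE 0.21) with smoke over the 3 strains. In ICR minus C57 and DBA minus C57 the median over the copper genes was -0.34 and -0.16, and over the iron genes 0.05 and 0.08.

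Lists of genes that answer known inducers of metallothionein, and the clock genes, were set beside the shares called over all probe sets, 2.29% in ICR minus C57 and 1.73% in DBA minus C57. Of 14 glucocorticoid responsive genes tested, none was called lower than in C57. Sgk1, a kinase, was higher in ICR (1.44, SE 0.26, limma adjusted p = 0.0273) and Klf9, a transcription factor, in DBA (1.31, SE 0.23, limma adjusted p = 0.0256), and the list medians were 0.58 in ICR minus C57 and 0.29 in DBA minus C57. None of 10 NRF2 targets tested was called between strains or with smoke, with medians of -0.57, -0.28 and 0.43 in ICR minus C57, DBA minus C57 and smoked minus control, the last against 0.01 over all probe sets tested. Nqo1, a quinone reductase, had 1.24 with smoke over the 3 strains, Srxn1, which repairs peroxiredoxins, 0.71 and Gsta2, a glutathione transferase, 0.69. These 3 have the widest range of the list. Hmox1, Tkt and Taldo1 of the same list had -0.09, -0.04 and -0.17. Nqo1 read 120 and 95.6 on the smoked arrays of C57 and DBA and 36.2 or less on the others. It passed the filter mainly through the arrays where it is high, so the size of its difference is uncertain. Of 12 interleukin 6 and acute phase genes tested 1 was called against C57, Il1b, higher in ICR. Of 12 heat shock genes tested 2, Hspa1a and Hspa1b, were called higher and 1, Hspb8, lower in ICR than in C57. Of 12 clock genes tested 4 were called higher in DBA and 2 in ICR than in C57. In both lists this was a larger share than over all probe sets. The clock gene Dbp, called in both, read 6.56 and 5.46 on the smoked and control arrays of C57, below the added constant. It passed the filter through DBA and ICR, so the clock counts were partly fixed by the filter. Over the lung epithelium list, 3 of 8 markers tested were called lower in ICR than in C57 and none in DBA. With smoke over the 3 strains no member of any of the 15 lists was called.

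No tested gene around the metallothionein cluster was called between strains. Of the 5 nearest measured genes on each side of the metallothionein cluster, chosen by position after the values of the members were seen, 8 of 10 passed the filter, and limma called none in ICR or DBA against C57. Over all probe sets tested 2.29% were called in ICR minus C57 and 1.73% in DBA minus C57. A count of 0 among 8 genes is near these shares and says little about the neighbours. Herpud1, a stress protein of the endoplasmic reticulum, had 0.09 in ICR minus C57 and 0.03 in DBA minus C57, and Nup93, a nuclear pore protein, -0.11 and -0.36. The widest differences among them were those of the carboxylesterase genes Ces1g, at -1.01 in ICR minus C57 (limma adjusted p = 0.288) and -0.26 in DBA minus C57, and Ces1d, at -0.17 and -0.44, so that Ces1g in ICR differed about as much as Mt2 without passing the test.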

How the data were processed

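Lung RNA of 6 arrays was analysed, 1 per strain and exposure. The deposited values are probe set intensity on a linear scale, per the series' value table; the sources used here do not state how the authors summarized and scaled them. Values were taken as log2 of the intensity plus 8.05, a constant equal to the 20th percentile of the table, and then quantile normalized, since array medians spread over more than 0.1. Tests took in 7453 probe sets whose mean passed the 40th percentile, without the 66 controls. Of all probe sets 10855 had 1 symbol, 396 several and 1237 none, and 10839 were matched to RefSeq by gene identifier.

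Linear models came from limma 3.58.1 under R 4.3.3, with a mean trend in eBayes, blocking on strain for exposure, keeping exposure as a term for strains and adding, for the response of 1 strain, a further smoke term. Tests were 2-sided. P-values rest on the spread between these arrays, with 2 residual degrees of freedom, or 1 for the response of a single strain. They also rest on a variance prior that eBayes takes from all probe sets tested. With 1 array per strain and exposure, they do not measure the spread between mice of the same group. The members and the 15 gene lists were chosen with earlier results of these data known. Of each list the genes called in any comparison could be named, at most 4 by size, and otherwise up to 3 by range over the arrays. Slc39a8, Hmox1, Tkt, Taldo1, Snap25, Krtdap, Slc30a3, Krt5, Krt14, the lung markers and the neighbouring genes were named after their values were seen. The fits were tested on simulated data with independent noise, in which 200 of 7453 probe sets were changed. Of 2-fold changes 53% were recovered with smoke over the 3 strains and 35% in DBA minus C57. Of 4-fold changes 100% were recovered in each, with 14 and 19 false calls. Plots used matplotlib 3.10.9 in Python 3.11.15.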

Additional observations from a re-analysis of the deposited data

Results flagged for a closer look

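Mt4 was singled out because its smoked minus control difference in DBA differed from that of the other strains by the test of that difference, at a log2 value of -2.87. It read 4.07 on the DBA smoked array against 74.6 on the DBA control array. Mt4 passed the filter through the arrays where it is high and lay below the added constant on both ICR arrays. Without the filter or without scaling between arrays its DBA response was not called. Slc30a1 was singled out because its differences had opposite signs, at -0.842 in ICR, -0.0866 in DBA and 0.0713 in C57 on the log2 scale. It did not pass the filter, so the main fit did not test the difference between strains. Fitted without the filter, its smoke response minus that of the other strains was -0.83 for ICR, 0.30 for DBA and 0.54 for C57, none called. No group held enough arrays for a search for outlying samples.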

How the results depend on the processing

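The count of members called for smoke over the 3 strains was 0 in all 12 alternatives run, and for the C57 and ICR responses 0 in all 8. In DBA against C57 the count of 2 became 0 without the filter, 0 with no mean trend and 1 without scaling, and 1 to 2 with single arrays left out; the 1 without scaling and the 1 without the C57 control array were Mt4, so that neither Mt1 nor Mt2 was called there. In ICR against C57 the count of 3, Mt4 included, became 1 without the filter and 0 to 3 with single arrays left out. In ICR against DBA the count of 0 became 0 to 1 with single arrays left out. For the DBA response the count of 1 became 0 with a constant of 1 and 0 under the stricter filter at the 60th percentile, since Mt4 was then not tested, and 0 without the filter and 0 without scaling. The cause of the other changes was not tested. Of single arrays or pairs none can be left out of a response fit, which then has no residual degrees of freedom. Within strains the count of at least 2-fold differences became 1 in C57 at 1.5-fold; 1 in DBA without scaling and 1 at 3-fold; and 1 in ICR without scaling, 1 with a constant of 1 and 1 at 1.5-fold. Of 384 values of single members under alternatives 25 lost a call, 6 gained one and 0 reversed a called direction. No paired analysis by replicate number was possible because each group held 1 array. Over all probe sets tested, dropping the filter moved the counts called to 66, 44 and 38 in DBA minus C57, ICR minus C57 and ICR minus DBA, against 129, 171 and 87, the count with smoke to 1 against 3, and that for the DBA response to 9 against 53. Without scaling, ICR against C57 had 7 called higher and 138 lower, against 69 and 102, ICR against DBA 4 and 257, against 38 and 49, and DBA against C57 64 and 21, against 65 and 64; with a common median the first of these had 50 and 175 and the last 54 and 85. Leaving out single arrays gave 102 to 298, 32 to 517 and 12 to 220 calls in DBA minus C57, ICR minus C57 and ICR minus DBA. Low signal limits Mt4 and Slc30a1.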
